A study of Mus musculus with 2 samples.

Results

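The urea cycle enzymes were followed by gene symbol across 2 single-nucleus RNA libraries of regenerating mouse liver. They are Nags, Cps1, Otc, Ass1, Asl and Arg1, and all 6 were found among the 32286 genes of the deposited count table. The wild-type and the Cox10-/- library each came from 1 liver. Mice of both groups carried a floxed Cox10 allele and ate standard chow. They received a single retroorbital dose of AAV8-GFP or AAV8-Cre 4 weeks before removal of 70% of the liver, and the labels do not say which virus each animal received. AAV8 is a viral vector taken up mainly by hepatocytes, and Cre deletes the floxed sequence, so other liver cells may keep the gene. The treatment protocol puts dissection 4 days after surgery and the sample characteristics give 4 weeks, so the stage of regrowth is uncertain. The labels used here state no age, sex or strain.

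The urea cycle turns ammonia, which is toxic, into urea for excretion, and hepatocytes are the cells that run it in full. It starts in mitochondria, where NAGS makes N-acetylglutamate, the activator of CPS1. CPS1 joins ammonia and bicarbonate into carbamoyl phosphate, and OTC transfers this to ornithine to form citrulline. Citrulline leaves the mitochondrion in exchange for ornithine, and in the cytosol ASS1 couples it to aspartate, ASL splits the product into arginine and fumarate, and ARG1 releases urea and returns ornithine. CPS1 consumes ATP, which mitochondria make by respiration, and Cox10 encodes an enzyme needed for the heme of cytochrome c oxidase. Textbook liver zonation places urea synthesis and ammonia release from glutamine on the periportal side of the lobule, and capture of the remaining ammonia by glutamine synthetase (Glul) around the central vein.

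The genes lie at 6 separate places of GRCm38 (mm10), in the GENCODE vM21 annotation. Nags is on chromosome 11 from 102145513 to 102149477, Cps1 on chromosome 1 from 67123026 to 67231259, and Otc on chromosome X from 10252305 to 10321024, all on the plus strand. Ass1 is on chromosome 2 from 31470207 to 31520672 on the plus strand. Asl, on chromosome 5 from 130011258 to 130029247, and Arg1, on chromosome 10 from 24915221 to 24927484, are on the minus strand. They span from 3.97 kb for Nags to 108 kb for Cps1, and exons cover 5.13% of Cps1 but 71.6% of Nags, so in nuclear RNA the genes offer very different amounts of intron. Levels are therefore compared between groups of nuclei and not between genes. Only Nags overlaps another annotated gene, the antisense Gm11586, which had 5 UMIs in the whole table against 376 for Nags.

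Promoter windows of 3 of the 6 genes were read from RefSeq on GRCm38.p6, up to the first annotated base of each gene. They were read because 5 members, in different parts of the genome, were low together in 1 group of nuclei described further on. Otc and Ass1 are among these 5, and Nags is not. Cps1, Asl and Arg1 are named only. Capitals mark matches, on either strand, to the C/EBP motif TTNCNNAA, after a factor family that regulates urea cycle genes, or to the GC box GGGCGG. The windows are chrX:10252055-10252304 for Otc, chr2:31470020-31470206 for Ass1 and chr11:102145263-102145512 for Nags, all on the plus strand.
Otc: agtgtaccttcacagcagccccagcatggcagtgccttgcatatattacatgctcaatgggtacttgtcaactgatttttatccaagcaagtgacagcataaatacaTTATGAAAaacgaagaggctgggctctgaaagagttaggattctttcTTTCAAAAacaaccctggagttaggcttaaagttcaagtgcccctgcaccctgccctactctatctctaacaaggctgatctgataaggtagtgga
Ass1: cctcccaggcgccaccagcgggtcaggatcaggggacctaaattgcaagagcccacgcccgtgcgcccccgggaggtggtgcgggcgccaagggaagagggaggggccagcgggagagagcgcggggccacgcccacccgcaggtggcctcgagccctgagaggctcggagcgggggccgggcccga
Nags: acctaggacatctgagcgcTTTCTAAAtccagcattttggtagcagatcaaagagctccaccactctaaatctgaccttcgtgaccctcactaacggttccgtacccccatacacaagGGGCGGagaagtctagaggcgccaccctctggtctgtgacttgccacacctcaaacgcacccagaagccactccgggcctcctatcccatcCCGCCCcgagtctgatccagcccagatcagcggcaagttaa
Otc held 2 matches to the C/EBP motif and none to the GC box, and its 250 bases were 43.6% G and C with 1 CpG. Ass1 was the opposite in composition, at 75.6% and 23 CpG over its 250-base window, with 1 GC box that begins just past the printed run. Nags held both motifs and stood at 55.6% with 11 CpG, against a median of 52.4% and 6 CpG over 32851 windows. Over all windows, counting both strands, 36.8% held the C/EBP motif and 32.7% the GC box, so either match is common. Neither TATAAA, in 12.4% of windows, nor the HNF4 motif CAAAGTNCA, in 1.19%, was found in the 3 windows.

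Some facts of the 2 libraries bear on all results. Mitochondrially encoded UMIs (unique molecular identifiers, 1 per captured transcript) passed 10% in 71.7% of wild-type and 39.3% of Cox10-/- nuclei, and after that limit 1542 and 3128 nuclei remained. Hepatocyte-like nuclei, in clusters named by marker levels (all 14 hepatocyte markers were detected in every cluster), numbered 1496 in the wild-type library (median 4415 UMIs) and 1169 in the Cox10-/- library (median 2658 UMIs). All but a few nuclei of the libraries lay in separate clusters, 0 to 3 for the wild-type and 4, 10 and 14 for the Cox10-/- library. Cluster 10 held 518 shallow nuclei with a median of 1161.5 UMIs, led by the acute phase genes Saa1 and Lrg1. Values without it are given for some comparisons. Cox10 itself stood at 35.8 CPM in wild-type and 43.9 CPM in Cox10-/- hepatocyte-like nuclei, so the deletion was not seen in these counts. A 3' tag outside the deleted part would not show it, and where the tags lie was not tested. The libraries shared 7 cell barcodes. With 1 library per group no test was possible: nuclei of 1 liver are not replicates, and all intervals in parentheses are exact 95% intervals for counting error alone. A gene was called higher or lower when its ratio reached 2-fold and the whole interval lay beyond 1.5-fold.

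Transcripts of the urea cycle were concentrated in hepatocyte-like nuclei. In the Cox10-/- library the level of Cps1 was 9713 CPM (UMIs scaled to an equal total per group; 9618 to 9808) in hepatocyte-like nuclei against 1672 CPM (1636 to 1710) in 1794 named non-hepatocyte nuclei. Against those nuclei 5 of the 6 members were called higher, where 12.7% of 12761 genes were called higher and 24% lower. The ratios were 5.81 for Cps1, 5.42 for Arg1, 5.00 for Asl, 3.87 for Ass1 and 2.07 for Otc. Nags did not pass, at 13.7 CPM (10.4 to 17.7, 57 UMIs) against 10.7 CPM (7.93 to 14.1, 50 UMIs).

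Levels outside the hepatocytes were lower in each cell type of the Cox10-/- library for Cps1, Otc, Ass1, Asl and Arg1, although for Otc the interval of lymphoid-like nuclei (133 to 330 CPM) overlapped that of hepatocyte-like nuclei. Cps1 ran in the order lymphoid-like (1910 CPM, 1645 to 2205), endothelial-like (1806, 1748 to 1866), myeloid-like (1753, 1662 to 1847), stellate-like (1493, 1436 to 1552) and cholangiocyte-like nuclei (1155, 935 to 1412). Only the step from myeloid-like to stellate-like and the one from stellate-like to cholangiocyte-like went past the counting intervals. Otc, Ass1, Asl and Arg1 lay within 85.1 to 216, 426 to 544, 85.1 to 226 and 24.3 to 254 CPM over the same 5 classes. Nags had 50 UMIs in all of them together and none in the 22 cholangiocyte-like nuclei, which allows up to 44.9 CPM. The 14 hepatocyte markers, which these cells should lack, together reached 26262 CPM there against 34279 CPM in hepatocyte-like nuclei, and neither free RNA nor doublets were measured as their source. For Otc and Ass1 the mix was not that of the pooled hepatocyte-like nuclei. For 100 UMIs of Cps1, non-hepatocyte nuclei held 9.07 of Otc and 29.4 of Ass1, and pooled hepatocyte-like nuclei 3.23 and 19.6. Hepatocyte-like nuclei had no single mix, since the shallow cluster 10 lay between these values, at 6.004 and 22.3. It lay between them for Nags too, but not for Asl or Arg1. The part of free RNA in the non-hepatocyte levels was not tested. In the wild-type library the level outside hepatocytes was higher. Its 154 named non-hepatocyte nuclei, taken from all deposited nuclei, held 4915 CPM of Cps1 (4712 to 5125), where Cox10-/- nuclei taken likewise held 1642 CPM (1615 to 1670). For 100 UMIs of Cps1, these wild-type nuclei held 3.54 of Otc, 16.4 of Ass1, 8.31 of Asl and 10.0 of Arg1. Wild-type hepatocyte-like nuclei held 3.98, 17.1, 7.19 and 10.8 in that order.

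**Figure D1:**
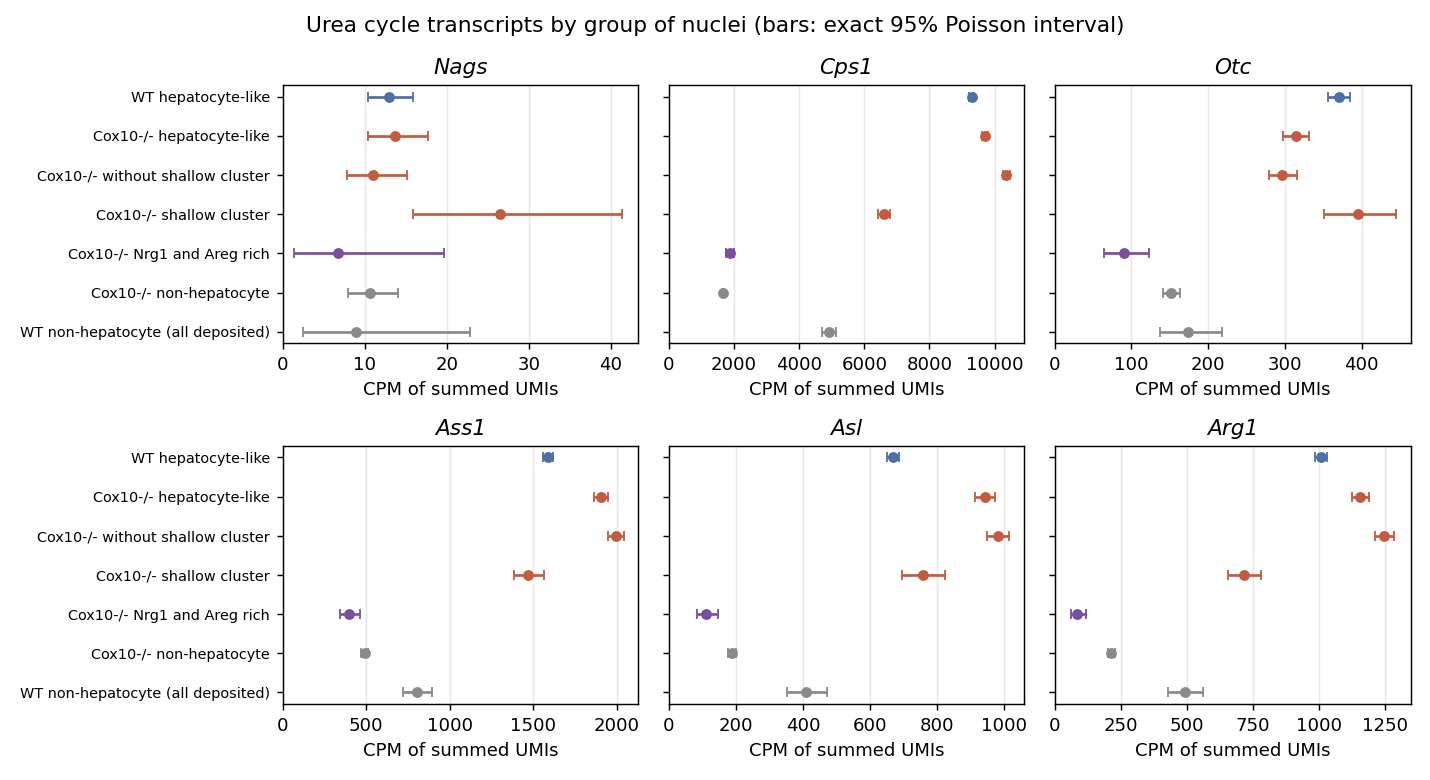
Each panel plots 1 gene's level in CPM of summed UMIs, on an axis from 0, in 7 groups of nuclei, with exact 95% Poisson intervals. Hepatocyte-like groups (blue and red) lie to the right for Cps1, Otc, Ass1, Asl and Arg1. For these genes the Nrg1 and Areg rich nuclei (purple) lie nearer to the Cox10-/- than to the wild-type non-hepatocyte nuclei (both grey). Arg1 is lowest in the Nrg1 and Areg rich nuclei.

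The comparison of genotypes asked whether hepatocytes of the Cox10-/- liver held other amounts of these transcripts. None of the 6 members was called in either direction, whereas 7.63% of 11434 genes were called higher and 3.19% lower. Small differences exceeded counting error. Within the mitochondrial steps, Nags, the maker of the CPS1 activator, had 92 UMIs in wild-type nuclei, or 13.0 CPM, and 57 UMIs in Cox10-/- nuclei, or 13.7 CPM, with a ratio of 1.05 (0.744 to 1.48). Cps1, the entry enzyme for ammonia, was at 9298 CPM (9227 to 9369) and 9713 CPM (9618 to 9808), a ratio of 1.04 (1.03 to 1.06). Otc, the ornithine transcarbamylase, was the only member with a ratio below 1, at 370 CPM (356 to 384) and 314 CPM (297 to 331), with a ratio of 0.848 (0.793 to 0.907).

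The cytosolic steps, given for wild-type and then Cox10-/- nuclei, were all somewhat higher in the latter. For Ass1, which uses citrulline and aspartate, the levels were 1586 and 1905 CPM in that order, and the ratio was 1.20 (1.17 to 1.24). Asl differed most of the 6, at 669 CPM (650 to 688) and 942 CPM (912 to 972), a ratio of 1.41 (1.35 to 1.47). Arg1, which releases urea, was at 1008 and 1157 CPM, a ratio of 1.15 (1.11 to 1.19). Whether such differences exceed those between livers of 1 genotype cannot be told with 1 liver each. The median log2 ratio of the 6 was 0.14, against -0.03 over all genes.

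How nuclei were weighted changed the direction for some members. Without the shallow cluster 10 the ratios were 1.11 for Cps1, 0.802 for Otc, 1.26 for Ass1, 1.47 for Asl, 1.24 for Arg1 and 0.850 for Nags, and again none was called (4.82% of genes higher, 2.99% lower). When every nucleus counted alike, as the mean over nuclei, the log2 ratio was -0.14 for Cps1 and -0.06 for Arg1, and thinned to 1000 UMIs per nucleus it was -0.13 for Cps1. The shallow nuclei held less Cps1 (6593 CPM, 6406 to 6784) and Arg1 (718 CPM, 657 to 783) than the other Cox10-/- hepatocyte-like nuclei (10362 and 1248 CPM), and more Otc (396 CPM, 351 to 445, against 297 CPM). None of the 6 was called between these nuclei, where 9.27% of genes were called higher and 3.87% lower in the shallow cluster. Their summed hepatocyte markers were 62982 CPM against 28306 CPM, and their part in the result was not tested. Asl and Ass1 were higher in the Cox10-/- library, and Otc lower, under each of 12 alternative settings. Among these, dropping the gene filter could not change a ratio, and the scalings shifted all genes alike by little.

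The share of hepatocyte-like nuclei with at least 1 UMI was compared at equal depth, and it was higher in the Cox10-/- library for Asl and Ass1. Thinned to 1000 UMIs per nucleus, which left out 1 wild-type and 43 Cox10-/- nuclei, Cps1 was seen in 99.4% (98.9 to 99.7) of wild-type and 99.6% (99.0 to 99.9) of Cox10-/- nuclei. Asl was seen in 47.2% (44.6 to 49.7) and 54.9% (51.9 to 57.8), and Ass1 in 74.2% (72.0 to 76.4) and 81.1% (78.7 to 83.3), so for these 2 genes the intervals did not overlap. Arg1 was seen in 60.0% (57.5 to 62.5) and 59.9% (57.0 to 62.8), Otc in 29.7% (27.4 to 32.1) and 28.4% (25.8 to 31.2), and Nags in 1.27% (0.767 to 1.98) and 2.04% (1.30 to 3.05). Before thinning, Asl was seen in 92.1% and 78.2%, Otc in 75.9% and 56.5%, Ass1 in 97.8% and 91.4% and Arg1 in 93.0% and 77.0% of wild-type and Cox10-/- nuclei. In thinned Cox10-/- non-hepatocyte nuclei, at a median of 2450 UMIs before thinning, the shares were 79.0% for Cps1, 39.7% for Ass1, 19.2% for Arg1, 16.3% for Asl, 14.4% for Otc and 1.18% for Nags.

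Some genes around the cycle were called where its enzymes were not. Of 9 measured mitochondrial partners, 2 were called higher in Cox10-/- hepatocyte-like nuclei and none lower, against 7.63% and 3.19% over all genes, and both are carriers. Slc25a15, the carrier that exchanges cytosolic ornithine for mitochondrial citrulline and so joins OTC to ASS1, had 144 CPM in wild-type against 544 CPM in Cox10-/- nuclei, with a ratio of 3.77 (3.50 to 4.07). Slc25a22, a glutamate carrier, stood at 87.4 and 196 CPM, a ratio of 2.24 (2.02 to 2.49). Both were also called without cluster 10 and in each of the 3 zone classes described further on. Slc25a13, the aspartate and glutamate carrier that supplies aspartate to ASS1, stood at 1867 and 1678 CPM, a ratio of 0.899 (0.873 to 0.925), and Car5a, the mitochondrial carbonic anhydrase that supplies bicarbonate to CPS1, at 122 and 82.4 CPM, a ratio of 0.674 (0.593 to 0.765).

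Among 11 measured genes of glutamine and ammonia handling, 6 were called higher and none lower, beside the same 7.63% and 3.19%. Glul, which fixes ammonia into glutamine, had 90.1 CPM in wild-type against 221 CPM in Cox10-/- nuclei, a ratio of 2.46 (2.22 to 2.72). Slc1a2, a glutamate transporter of pericentral hepatocytes, stood at 89.4 and 212 CPM, a ratio of 2.38 (2.14 to 2.64). Oat, which links ornithine to glutamate, stood at 25.9 and 66.5 CPM, a ratio of 2.56 (2.12 to 3.11), and Slc38a2, an amino acid transporter, was also called. The other 2, Slc1a4 and the ammonia transporter gene Rhbg, rested on 3 and 4 wild-type UMIs, and without the shallow cluster the count was 4 of 9. Gls2, the liver glutaminase that releases ammonia, was not called, at 344 and 262 CPM. Within each of the zone classes described further on, 3 genes of this list were called higher, Glul and Oat in every class. Slc1a2 was called in the pericentral class alone, and its ratio in the middle class was 1.49 (0.973 to 2.25).

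Few genes of the other lists were called. No gene of 7 on the arginine and polyamine side was called, and in amino acid catabolism, the source of the nitrogen, 0 of 39 were called higher and 1 lower, the histidine pathway gene Amdhd1 (224 and 107 CPM), against 7.63% higher and 3.19% lower over all genes. The median log2 ratios of these lists were 0.58 and 0.32, and that of the mitochondrial partners was -0.15. Without the shallow cluster these medians were 0.35, 0.10 and -0.05 in that order. Of 19 regulators, Cebpb, a member of the C/EBP family, was called higher, at 150 and 353 CPM (ratio 2.35, 2.17 to 2.55). Onecut1, a hepatocyte transcription factor, was called lower, at 231 and 35.5 CPM, which is 6.50-fold (5.49 to 7.74). Without the shallow cluster Ppargc1a, a coactivator of the fasting response, was called higher too, with 748 CPM against 369 CPM in wild-type nuclei.

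**Figure D2:**
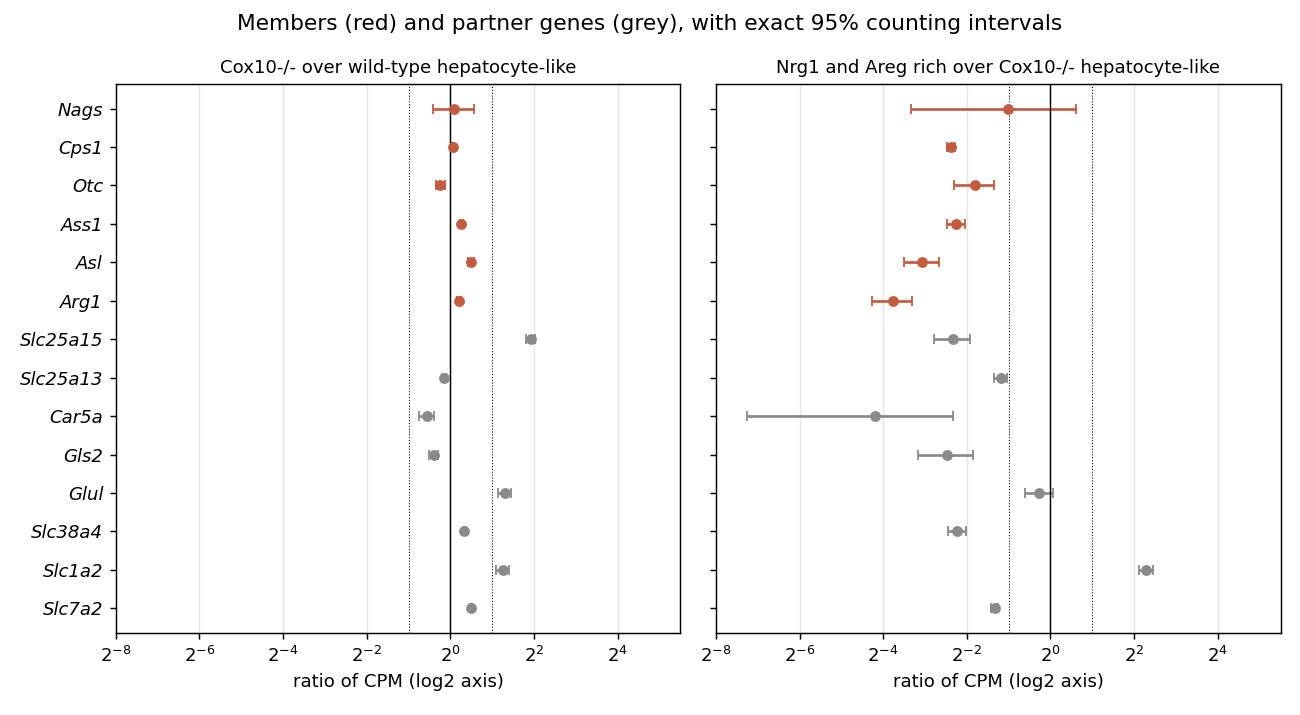
Ratios of CPM on a log2 axis with exact 95% counting intervals, for the 6 members (red) and 8 partner genes (grey), Cox10-/- over wild-type hepatocyte-like nuclei on the left and Nrg1 and Areg rich over Cox10-/- hepatocyte-like nuclei on the right; dotted lines mark 2-fold. The members lie between 0.848 and 1.41 on the left, and on the right the whole intervals of 5 of 6 lie left of the lower dotted line.

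Position in the lobule was read from a score of 10 periportal and 10 pericentral markers that left out the members and all lists above, and each library was split into 3 classes of near equal size by its own score. The classes are ranges of a score and not cell types, and 338 wild-type and 320 Cox10-/- nuclei lay within 0.1 of a cut. Shallow nuclei were 143 of 390 periportal, 200 of 389 middle and 175 of 390 pericentral Cox10-/- nuclei. The levels by class include them. Of the genes outside the score that were set as its check, Slc1a2, Glul and Oat were called lower on the periportal side in both libraries. Sds and Hal, enzymes of serine and histidine breakdown, were called higher there in both. Gls2 was called higher in the Cox10-/- library alone, and Uroc1 and Rhbg in neither. No member was called in either library, where 0.842% of wild-type and 0.963% of Cox10-/- genes were called higher on the periportal side and 1.02% and 1.23% lower. Each member was detected in all zone classes of both libraries. The class ratios of Cps1, Otc, Ass1, Asl and Arg1 had intervals within 2-fold, and that of Nags did not.

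Arg1 had the clearest gradient. From the pericentral to the periportal class it went from 869 to 1103 CPM in the wild-type, a ratio of 1.27 (1.20 to 1.34), and from 886 to 1371 CPM in Cox10-/- nuclei, where the ratio was 1.55 (1.44 to 1.66). Asl went the same way, from 637 to 679 CPM (1.07, 0.992 to 1.14) and from 827 to 1005 CPM (1.21, 1.12 to 1.31). Cps1 leaned to the pericentral side, with 9575 CPM pericentral and 8833 CPM periportal in the wild-type (0.922, 0.905 to 0.9401) and 10724 and 9069 CPM in the Cox10-/- library (0.846, 0.826 to 0.865). The direction of Arg1 and of Cps1 was the same under each of 15 alternative settings in both libraries. Among these, dropping the gene filter or the minimum of zone marker UMIs could not change a ratio. Otc (0.972, 0.883 to 1.07, and 0.954, 0.836 to 1.09) and Nags (0.777, 0.433 to 1.38, and 0.742, 0.382 to 1.43) had intervals that include 1.

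Ass1 went in opposite directions. Its pericentral and periportal levels were 1677 and 1488 CPM in the wild-type (ratio 0.887, 0.847 to 0.928) and 1760 and 1938 CPM in the Cox10-/- library (1.10, 1.04 to 1.16). Accordingly the Cox10-/- to wild-type ratio of Ass1 was 1.05 (0.998 to 1.10) in the pericentral, 1.27 (1.21 to 1.34) in the middle and 1.30 (1.24 to 1.37) in the periportal class. For Arg1 the same ratios were 1.02 (0.949 to 1.09), 1.13 (1.06 to 1.21) and 1.24 (1.17 to 1.32), and for Asl 1.30, 1.43 and 1.48. None of the 6 was called in any class, where 4.99% of genes were called higher and 2.39% lower in the periportal, 6.42% and 2.5% in the middle, and 5.86% and 2.84% in the pericentral class. The classes were set in each library, so a class need not hold the same part of the lobule in both.

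A split into 10 bins showed the low end of Arg1 and Asl. In the most pericentral bin of the Cox10-/- library (117 nuclei) Arg1 was at 611 CPM (541 to 688), against 962 CPM (869 to 1063) in the next bin and 1391 CPM (1282 to 1507) in the most periportal one. Asl was at 627 CPM (556 to 705) there and at 916 CPM (825 to 1014) in the next. Cps1 was not lower there, at 10485 CPM (10188 to 10789) and 10976 CPM (10656 to 11303). In the wild-type library Arg1 was at 740 CPM (679 to 805) in that bin, 830 CPM (766 to 899) in the next and 1080 CPM (1002 to 1163) in the most periportal one, and Asl at 577, 620 and 686 CPM. The first pair of wild-type Arg1 bins had overlapping intervals.

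Cluster 14 showed the same combination. It is not independent of the score, because the same nuclei lie in the bins and Lgr5, a leading gene, is also a pericentral marker of the score. Its 65 Cox10-/- nuclei were led by Meg3, Rian, Slc1a2 and Lgr5, transcripts of which Slc1a2 and Lgr5 mark the cells around the central vein. They held 10664 CPM of Cps1 (10338 to 10997) but 394 CPM of Arg1 (333 to 462), 620 CPM of Asl (543 to 704), 1426 CPM of Ass1 (1308 to 1551) and 257 CPM of Otc (209 to 314). In cluster 4, which held 573 of the Cox10-/- hepatocyte-like nuclei, the levels were 10350 CPM of Cps1, 1357 of Arg1, 1028 of Asl, 2071 of Ass1 and 299 of Otc. Arg1 thus varied most between these clusters, Cps1 and Otc had overlapping intervals, and the clustering had not used the members. In the wild-type library, cluster 3, led by genes that include Slc1a2 and the bile acid enzyme Cyp7a1, was likewise low in Arg1, at 740 CPM (689 to 794) against 1001 to 1115 CPM in clusters 0 to 2, with Cps1 at 9534 CPM.

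**Figure D3:**
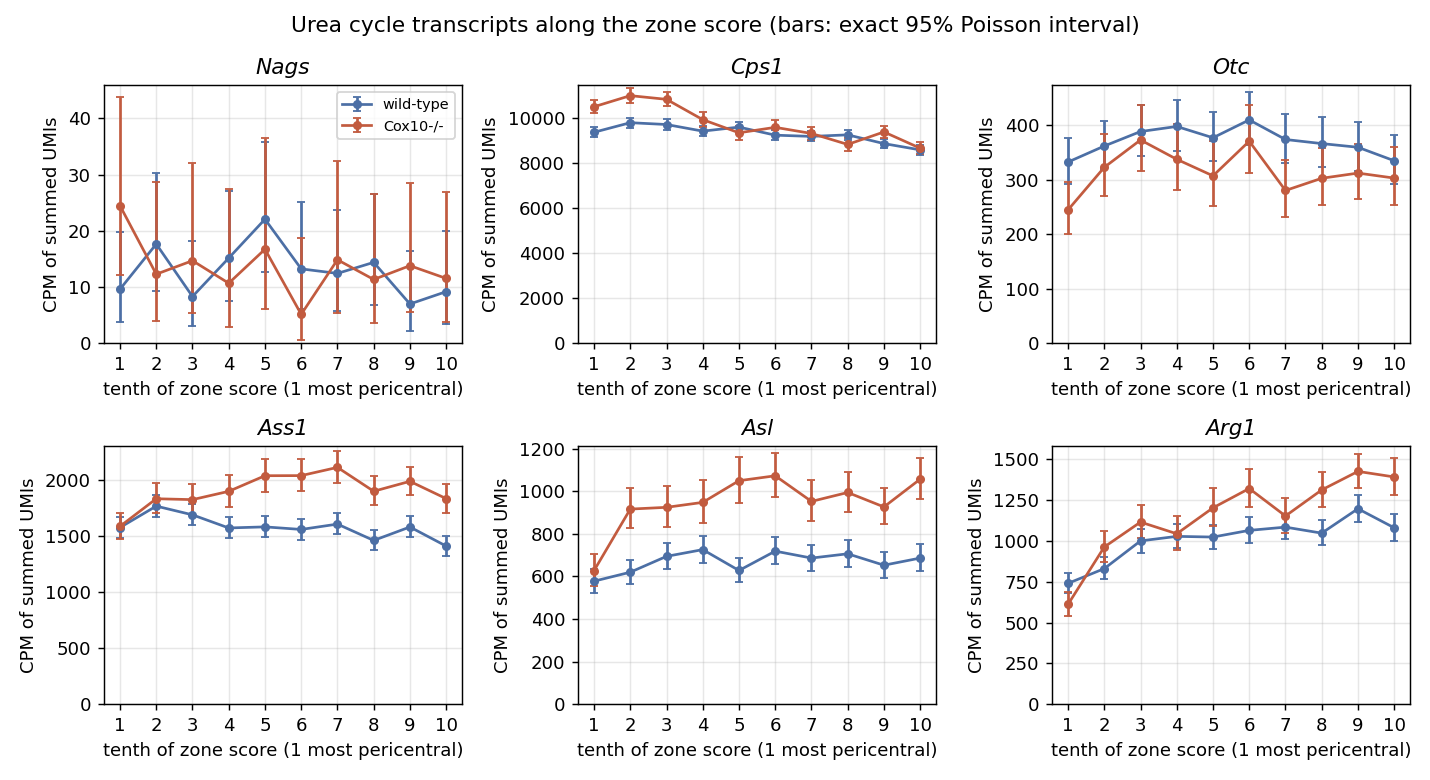
Each panel plots 1 gene's level in CPM over 10 equal bins of the zone score, from most pericentral (1) to most periportal (10), for the wild-type (blue) and Cox10-/- library (red), with exact 95% Poisson intervals. Arg1 and Asl are lowest in the first bin, Cps1 declines slightly toward the periportal end, and Otc and Nags have wide intervals.

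A group of Cox10-/- nuclei rich in Nrg1 and Areg, which encode ligands of the EGF receptor family, held little of the urea cycle. These were the 90 Cox10-/- nuclei of cluster 12, with 445056 UMIs and a median of 4919.5 UMIs. The cluster had 1 wild-type nucleus, was led by Nrg1, Pdk4, Areg and Slc7a11, and met no naming rule. Against Cox10-/- hepatocyte-like nuclei, 5 of the 6 members were called lower, where 4.58% of 9906 genes were called lower and 8.91% higher. The members' summed share of UMIs was 0.256%, against 1.40% in Cox10-/- and 1.29% in wild-type hepatocyte-like nuclei.

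Among the 6 members, the last steps of the cycle differed by the largest folds. Arg1 had 38 UMIs in these nuclei, which is 85.4 CPM (60.4 to 117) against 1157 CPM, and it was 13.5-fold lower (9.86 to 19.2). Asl, at 112 CPM (83.4 to 148) against 942 CPM, was 8.38-fold lower (6.34 to 11.3). Ass1 was at 398 CPM (341 to 461) against 1905 CPM, or 4.79-fold lower (4.13 to 5.59). Of the mitochondrial steps, Cps1 was at 1869 CPM (1745 to 2001) against 9713 CPM, 5.20-fold lower (4.85 to 5.57), and Otc at 89.9 CPM (64.2 to 122) against 314 CPM, 3.49-fold lower (2.55 to 4.91). Nags had 3 UMIs, at a ratio of 0.493 (0.0987 to 1.51). The intervals of Arg1 and Otc do not overlap, so the folds against hepatocyte-like nuclei were unequal. The ratio of hepatocyte-like over non-hepatocyte nuclei was unequal too, at 5.42 for Arg1 and 2.07 for Otc. Against non-hepatocyte nuclei the intervals of Arg1 (0.281 to 0.552) and Otc (0.420 to 0.815) overlap.

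The 5 calls also held without the shallow cluster (5.11% of genes called lower and 8.64% higher there), after thinning, in the 48 Cox10-/- nuclei with at least 1 UMI of both Nrg1 and Areg, and against the pericentral class alone. In the last of these, which was chosen after seeing the data, the log2 ratio was -3.38 for Arg1 and -1.81 for Otc. Levels in these nuclei were near those of non-hepatocyte nuclei of the library, and the part of free RNA in them was not tested. Against those nuclei Cps1 had a ratio of 1.12 (1.04 to 1.20), Ass1 of 0.809 (0.690 to 0.943), Asl of 0.597 (0.440 to 0.794) and Otc of 0.593 (0.420 to 0.815). Arg1, at 214 CPM in the non-hepatocyte nuclei, was called lower even than there (0.400, 0.281 to 0.552), where 12.5% of 11880 genes were called lower and 11.2% higher.

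Hepatocyte markers were lower too, and apart from Hnf4a they were not kept out of the clustering. All 14 were below their level in Cox10-/- hepatocyte-like nuclei, at a summed 17717 against 34279 CPM. Apob, which encodes a lipoprotein, stood at 1287 against 1664 CPM and Alb at 8698 against 16177 CPM. Hnf4a, a hepatocyte transcription factor, was at 180 CPM (143 to 224) against 297 CPM, and above its 61.3 CPM in non-hepatocyte nuclei. The sum of the 14 went the other way, since non-hepatocyte nuclei held 26262 CPM, more than the 17717 CPM of the Nrg1 and Areg rich nuclei. The lowest ratios among the 14 were 0.157 (0.134 to 0.182) for Pck1, 0.203 for Acly and 0.233 for G6pc. The members lay on both sides of these, at 0.0738 for Arg1, 0.119 (0.0884 to 0.158) for Asl and 0.192 for Cps1. Ass1 was at 0.209, Otc at 0.286 and Nags at 0.493, and the intervals of Pck1 and Asl overlap. Of 8 cholangiocyte markers, Krt19, Krt7 and Cftr were at 0 and the sum was 272 CPM, against 9289 CPM in cholangiocyte-like and 150 CPM in hepatocyte-like nuclei. In Cox10-/- hepatocyte-like nuclei Krt7 and Cftr were at 0 as well, and Krt19 at 0.480 CPM. Sox9 was higher, at 22.5 against 5.52 CPM (ratio 4.07, 1.73 to 8.89), and so was Pkhd1, at 227 against 120 CPM (1.89, 1.51 to 2.35). Spp1 was lower, at 15.7 against 23.5 CPM (0.668, 0.262 to 1.43), and Epcam and Tspan8 had too few UMIs to read. The part of cell identity in the low urea cycle levels was not tested.

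The partner genes were low in part. In amino acid catabolism 28 of 39 genes were called lower and none higher, against 4.58% and 8.91% over all genes, with a median log2 ratio of -1.92 against 0.10 over all genes. Sds stood at 44.9 against 815 CPM, Gldc of the glycine cleavage system at 22.5 against 320 CPM, and Aass of lysine breakdown at 216 against 1612 CPM. Of 10 mitochondrial partners 3 were called lower, Car5a (2 UMIs, 4.49 against 82.4 CPM), Slc25a15 (108 against 544 CPM) and Slc25a13 (735 against 1678 CPM). Aldh18a1, which makes the precursor of proline and ornithine, was called higher, at 31.5 CPM against 2.16 CPM (14 and 9 UMIs).

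Glutamine handling changed in both directions. Gls2, the liver glutaminase, was called lower, at 47.2 against 262 CPM, 5.55-fold (3.61 to 8.997). The transporter gene Slc1a2 was called higher, at 1034 against 212 CPM, a ratio of 4.86 (4.34 to 5.45). The arginine transporters split by form. Slc7a2, the form of hepatocytes, was called lower (2622 against 6629 CPM), and Slc7a1, the form of most other cells, was called higher, at 94.4 CPM (42 UMIs) against 1 UMI, a ratio of 393 (66.8 to 15889). Of 11 glutamine and ammonia genes 3 were called higher and 4 lower, and of 6 arginine and polyamine genes these 2 alone were called, against 8.91% higher and 4.58% lower over all genes. Of 19 regulators, Ppargc1a (204 against 687 CPM) and Klf15 (62.9 against 197 CPM), both activators of fasting and amino acid metabolism in liver, were called lower and none higher.

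Cps1 was also counted in single nuclei. Per 10000 UMIs, the median nucleus held 14.1 UMIs of Cps1 in the Nrg1 and Areg rich group, 77.9 in Cox10-/- hepatocyte-like, 14.99 in non-hepatocyte and 89.1 in wild-type hepatocyte-like nuclei. The 90th percentile of the Nrg1 and Areg rich nuclei, 44.1, lay below the lower quartile of Cox10-/- hepatocyte-like nuclei, 56.2. Below 10 UMIs per 10000 lay 40.0% of the Nrg1 and Areg rich nuclei and 0.770% of the Cox10-/- hepatocyte-like nuclei. After thinning, Arg1 was seen in 11.1% (5.46 to 19.5) of Nrg1 and Areg rich nuclei against 59.9% of Cox10-/- hepatocyte-like and 19.2% of non-hepatocyte nuclei, and Asl in 10.0% (4.68 to 18.1) against 54.9% and 16.3%.

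**Figure D4:**
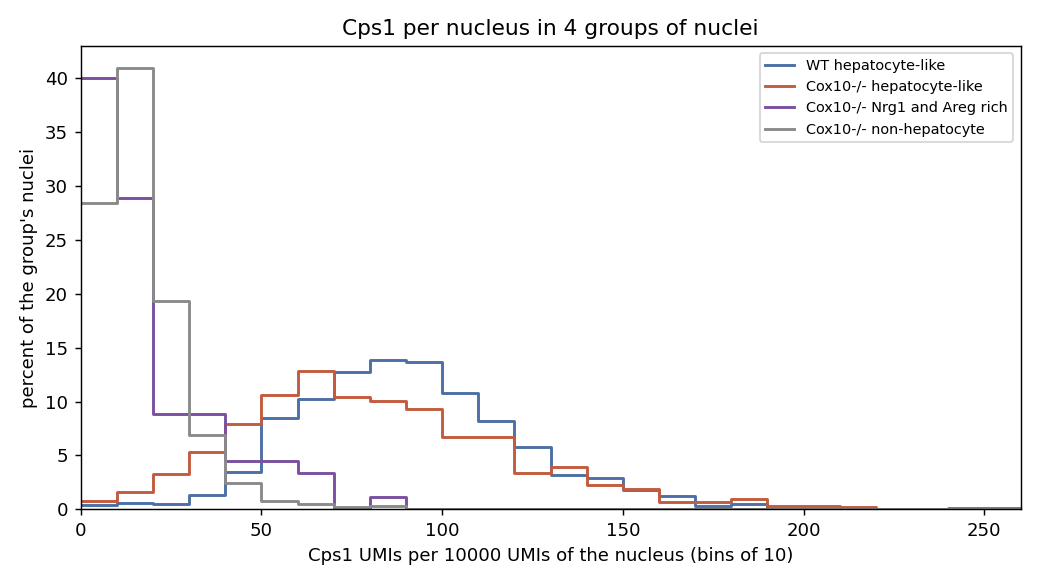
The percent of nuclei in each bin of Cps1 UMIs per 10000 UMIs of the nucleus, for 4 groups of nuclei drawn as stepped lines. The Nrg1 and Areg rich nuclei (purple) and non-hepatocyte nuclei (grey) pile up at the low end, with medians of 14.1 and 14.99, and the hepatocyte-like nuclei of both libraries spread around 77.9 and 89.1.

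The members followed each other across groups of nuclei. Genes were compared with the mean of the 6 over 14 groups of at least 30 nuclei, formed by library and cluster. Outside the members, the most alike by Pearson correlation of log2(CPM + 1) were Pck1 (0.994), Slc38a4 (0.979), Prodh2 (0.978), Thrsp (0.977) and 0610005C13Rik (0.976). Of 6636 ranked genes, the members Asl and Ass1 ranked 2 and 3. Pck1 encodes the gluconeogenic enzyme PEPCK, Slc38a4 a neutral amino acid transporter and Prodh2 a hydroxyproline dehydrogenase, and Pck1 was among the hepatocyte markers. Between members the correlation ran from 0.561 for Cps1 with Nags to 0.985 for Cps1 with Ass1. The groups include hepatocyte-like and other clusters, so genes higher in hepatocyte-like nuclei can correlate through that difference alone. They also share 2 libraries, their depth and any free RNA, so these values are a description.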

How the data were processed

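Nuclei were profiled by droplet-based 3' RNA sequencing, with Cell Ranger 7.0 and mm10 named in the submitters' processing notes. The authors deposited raw UMI counts for each gene in each nucleus. Whether intronic reads were counted, with which annotation, and how nuclei were filtered is not given in the sources used here. The members and gene lists were chosen with earlier results of these data known.

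Nuclei with at most 10% mitochondrially encoded UMIs were kept, and Scrublet calls removed (0 wild-type and 14 Cox10-/- nuclei, 0.271%, so doublet removal had not worked). Scanpy 1.11.5 clustered 2000 variable genes without the members and nitrogen lists (30 components, 15 neighbours, Leiden resolution 1.0). Clusters were named from marker lists by thresholds set after the data were seen. UMIs were summed per group and divided by their total. A comparison took genes whose 2 sums reached 20 UMIs together. Intervals are exact: Poisson for CPM, Clopper-Pearson for shares, conditional binomial for ratios. All 6 members are named, up to 4 genes per list by the interval end nearest to 1, and the 5 genes most like the members; Slc38a2 and Slc25a13 in the genotype comparison, and marker and cluster-leading genes, were named outside this rule. A gene that the rule picks is not reported here. Alternatives used other filters, resolutions, zone scores and scalings (edgeR 4.0.16, DESeq2 1.42.0). The ratio rule was tested on simulated data.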

Additional observations from a re-analysis of the deposited data

Results flagged for a closer look

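Ass1 was set apart because its zone ratio went opposite ways in the 2 libraries, with both counting intervals beyond equality. The log2 ratio of the periportal to the pericentral class was -0.17 for wild-type nuclei and 0.14 for Cox10-/- nuclei, a difference of 0.31 (0.21 to 0.41, counting error only). Each direction was kept under all 15 alternative settings of its library, of which those on the gene filter and the zone marker minimum could not change it. With 1 library per genotype the difference was not tested.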

How the results depend on the processing

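No paired analysis was possible because each group has 1 library and both are replicate 1. Under each setting run, the count of members called stayed at 0 between genotypes and between zone classes, and at 5 lower for the Nrg1 and Areg rich against Cox10-/- hepatocyte-like nuclei. Counts over all genes moved more: between genotypes, 872 genes were called higher and 365 lower, against 539 higher without the shallow cluster, and 1348 higher and 636 lower for the mean over nuclei. The cause was not tested. The member ratios between genotypes ranged over 12 settings from 0.905 to 1.11 for Cps1, 0.957 to 1.24 for Arg1 and 0.848 to 1.61 for Nags, so these 3 have no settled direction. Otc in both libraries and Asl in the wild-type library changed zone direction in 1 or 2 of 15 settings. Scaling by TMM, by DESeq2 size factors or without mitochondrially encoded genes shifted log2 ratios by -0.03, -0.03 and 0.05. Nags, at 3 UMIs in the Nrg1 and Areg rich nuclei, was too shallow to call, and its log2 ratio ran from -1.80 to 0.12.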
